A study of Mus musculus with 8 samples.

Results

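The genes described here are 10 genes of glycolysis and of the response to low oxygen, examined in the embryonic mouse heart after reduction of Isl1. They were taken by gene symbol from a table of 20701 genes, with 1 transcript kept per gene (the one with the highest mean count), and all 10 were found and passed the filter on low counts, which left 13769 genes for testing. The 10 are Slc2a1, Hk2, Pfkl, Aldoa, Pgk1, Eno1, Ldha, Pdk1, Vegfa and Bnip3. RNA came from OFT/RV tissue, that is, outflow tract with right ventricle dissected from single C57BL/6 embryos at stage E10.5. The control group (CTRL) held 4 wild type embryos. The Isl1_hypo group held 4 embryos hypomorphic for Isl1, a LIM-homeodomain transcription factor of the second heart field. In this line a neo cassette in a floxed allele lowers Isl1 from both copies (Isl1-f;neo/f;neo) in every cell that uses the gene, so an indirect effect from outside the heart cannot be told apart from one within it. The question put to these genes was whether the mutant OFT/RV carried the transcript pattern of a tissue short of oxygen.

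Glycolysis breaks glucose down to pyruvate in the cytosol and needs no oxygen, and the early embryonic heart is known to rely on it before mitochondrial oxidation matures. When oxygen is plentiful, prolyl hydroxylases mark the alpha subunits of hypoxia-inducible factor (HIF) for VHL-dependent degradation. When it is scarce, HIF-1α is stabilised, pairs with ARNT and binds short DNA motifs near glycolytic, angiogenic and mitophagy genes, which are then transcribed more. HIF activity is thus set mainly at the protein level, and the level of its target transcripts is the usual readout in RNA data.

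The HIF core motif, ACGTG or GCGTG read on either strand, was searched in RefSeq promoter windows of 300 bases (GRCm38.p6; 250 bases before and 50 after each annotated start). All 10 genes had at least 1 window with a match, beside 66.7% of the 10603 genes tested here that had a window and 46.7% of all 27025 genes with one, and 14 of their 17 windows held it. The 10 genes had more windows each than the other genes. Among all windows 43.8% held the motif, and 60.5% did among the windows of genes tested here. The upstream stretches of 5 genes are shown, since these include both genes with the largest differences between the groups (Pgk1 and Eno1), the gene with the highest level per length (Ldha), the glucose transporter gene Slc2a1 and the mitophagy gene Bnip3. They are written 5′ to 3′ on the strand of the gene, from the first window of the gene that held the motif before the start. Capitals mark each match, and a run of 6 capitals is a match on both strands that overlap.
Pgk1: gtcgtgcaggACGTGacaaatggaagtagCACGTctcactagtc
Eno1: tgccttattaGCGTGagctggacag
Ldha: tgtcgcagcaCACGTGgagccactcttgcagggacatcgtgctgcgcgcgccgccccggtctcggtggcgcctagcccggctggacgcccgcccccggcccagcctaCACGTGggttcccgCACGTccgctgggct
Slc2a1: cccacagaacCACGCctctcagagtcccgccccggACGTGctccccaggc
Bnip3: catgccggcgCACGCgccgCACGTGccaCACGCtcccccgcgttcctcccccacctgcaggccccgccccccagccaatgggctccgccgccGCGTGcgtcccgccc

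These stretches lie at chrX:106186940-106186983 (Pgk1, plus strand), chr4:150236468-150236492 (Eno1, plus strand), chr7:46845649-46845784 (Ldha, plus strand), chr4:119108674-119108723 (Slc2a1, plus strand) and chr7:138909527-138909633 (Bnip3, minus strand) of GRCm38.p6. The Ldha stretch held 5 matches within 155 bases of the start and the Bnip3 stretch held 5 within 127 bases. Pgk1 had its 2 matches 150 and 131 bases before the start, and the Slc2a1 matches stood at 61 and 36 bases. A match is a description of the sequence and does not show that HIF binds there.

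Reduction of Isl1 was visible in each mutant library. Isl1 lies on the minus strand of chromosome 13 (117088478 to 117099896; this and other gene positions are in mm9, the build of the counts). Its level ranged from 29.6 to 61.5 CPM (counts scaled to a common library total and corrected for library composition) in CTRL and from 6.86 to 12.7 CPM in Isl1_hypo, which gives −2.29 on the log2 scale (quasi-likelihood test of edgeR, adjusted p = 0.0077). The 8 cardiomyocyte markers were present in every library, from Nkx2-5 at 154 CPM or more to Actc1 at 17690 CPM or more, as the label of the tissue requires. Of the 8, 4 were higher and 4 lower in Isl1_hypo (median log2 fold change −0.06). Myh7, the beta myosin heavy chain gene, ranged from 3947 to 5175 CPM in CTRL and from 2787 to 3617 CPM in Isl1_hypo, without passing adjustment (log2 fold change −0.49, edgeR adjusted p = 0.165), and DESeq2 called 1 of the 8 (lowest adjusted p 0.0137). Total counts ranged from 29748458 to 46678973 in CTRL and from 18422245 to 33050298 in Isl1_hypo. All 15 red cell markers had a positive log2 fold change, with a median of 1.59, and 13 of them (86.7%, beside 11.9% of all genes) had an unadjusted p under 0.05. After adjustment 1 passed with edgeR (Epb42) and 5 with DESeq2. Their summed level was 2060 to 12050 CPM in CTRL against 12030 to 25840 CPM in Isl1_hypo. Hba-a1 and Hba-a2 had identical counts in every library, and Hbb-b1 with Hbb-bs and Hbb-b2 with Hbb-bt had nearly the same counts. The 15 markers are thus not all separate evidence. Their sum, like the globin shares below, holds these counts more than once. Of 6 epithelial markers 3 could be tested, and all 3 were higher in Isl1_hypo at an unadjusted p under 0.05, as were 5.69% of all genes. None of these passed adjustment with edgeR (lowest adjusted p 0.146), and 2 passed with DESeq2. The keratin gene Krt8 ranged from 24.7 to 44.7 CPM in CTRL and from 46.1 to 92.7 CPM in Isl1_hypo, and Krt18 from 42.8 to 73.1 and from 77.2 to 139.8 CPM. For both keratin genes every mutant library lay above every control, and the groups did not overlap, in either direction, for 8.5% of all genes tested. Epcam, the third marker tested, rested on Isl1_hypo replicate 1, at 9.83 CPM against at most 1.87 CPM elsewhere. Cdh1, the epithelial cadherin gene, was high only in the same library, at 15.3 CPM against at most 0.311 CPM elsewhere. The part of epithelial cells in the results that follow was not tested. Liver and yolk sac markers summed to at most 3.26 CPM and macrophage markers to at most 15.2 CPM in any library, and 2 neural marker genes passed the filter, both lower in Isl1_hypo.

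None of the 10 genes differed between the groups after adjustment for all genes tested. Their lowest adjusted p was 0.312 with edgeR, and 0 of 10 passed with DESeq2 either, where the lowest was 0.189. Over all genes, 0.269% passed an adjusted p of 0.05 with edgeR and 2.17% with DESeq2. At an unadjusted p under 0.05 there were 2 of 10, Pgk1 and Eno1, both higher in Isl1_hypo, against 11.9% of all genes in either direction and 5.69% of all genes in the higher direction. In number, 7 of the 10 had a positive log2 fold change and 3 a negative one, and the median was 0.07, beside 0.01 over all genes tested. For each of the 10 genes the 95% interval of the log2 fold change lay within −1 and 1, that is, within a 2-fold change either way, and the highest upper bound was 0.74 (Eno1).

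**Figure D1:**
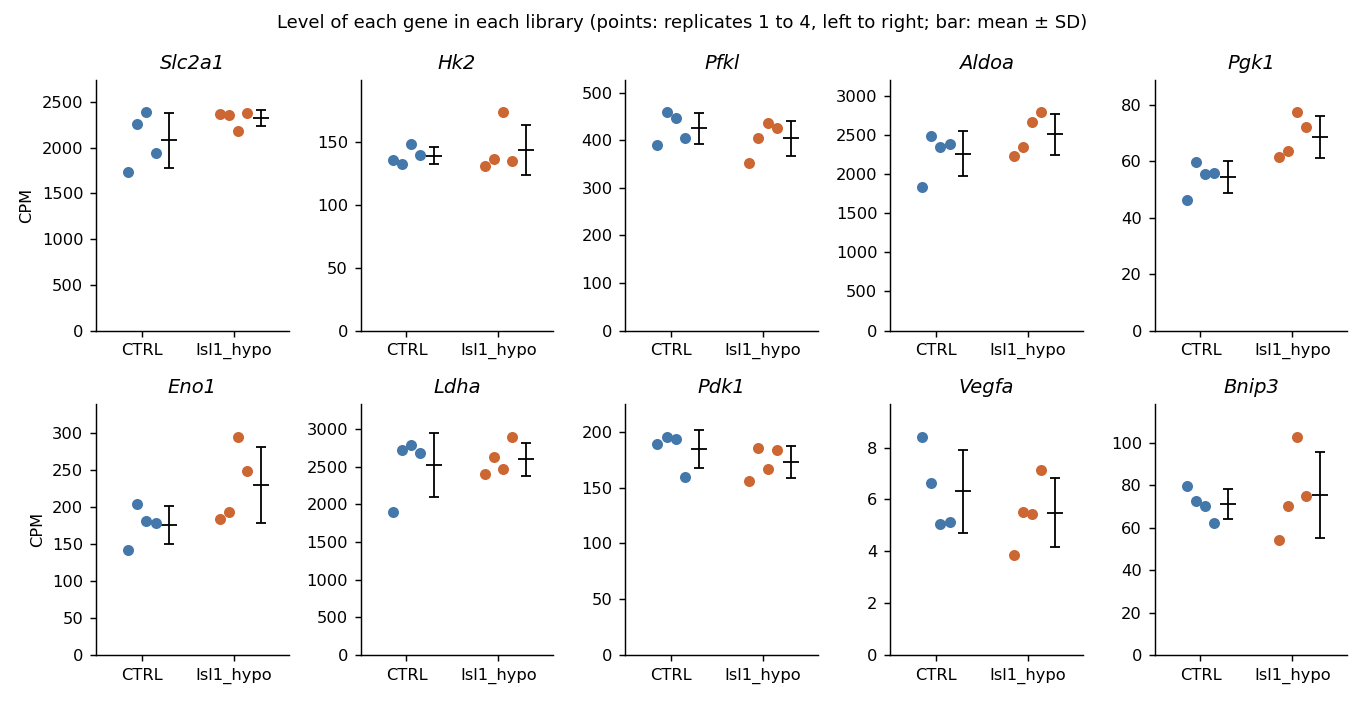
CPM of each of the 10 genes (vertical axes, from 0) in the 4 CTRL and 4 Isl1_hypo libraries; points are replicates 1 to 4 from left to right, and the bar beside them is the mean ± SD. The groups overlap for 9 genes, and only for Pgk1 do all Isl1_hypo libraries (61.5 to 77.3 CPM) lie above all CTRL libraries (46.4 to 59.8 CPM).

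Glucose uptake and the first steps of its breakdown were examined first. Slc2a1 (chromosome 4, 118781316 to 118809935, plus strand) encodes GLUT1, the main glucose transporter of embryonic tissue. CTRL replicates 1 to 4 had 1737, 2257, 2386 and 1938 CPM of it, and Isl1_hypo replicates 1 to 4 had 2369, 2363, 2188 and 2378 CPM. The mutant libraries lay close together in the upper part of the control range, and the groups overlapped. The log2 fold change was 0.16 (SE 0.114, 95% interval −0.09 to 0.41, adjusted p = 0.597).

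Hk2 (chromosome 6, 82675019 to 82724448, minus strand) encodes hexokinase 2, which traps glucose by phosphorylation. Its controls held 135, 133, 148 and 139 CPM in replicate order, and its mutants 131, 136, 173 and 135 CPM. Isl1_hypo replicate 3 stood above all others, while the other mutant libraries lay at the lower end of the controls. The log2 fold change of Hk2 was 0.05 (interval −0.19 to 0.29), and without Isl1_hypo replicate 3 it was −0.05. Pfkl (chromosome 10, 77449692 to 77472828, minus strand), the liver-type subunit of phosphofructokinase, was counted at 391, 459, 446 and 406 CPM in CTRL and at 352, 404, 436 and 425 CPM in Isl1_hypo. These ranges largely coincided, with a log2 fold change of −0.07 (interval −0.30 to 0.15).

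The enzymes of the lower pathway followed. Aldoa (chromosome 7, 133938748 to 133944265, minus strand), aldolase A, which splits fructose bisphosphate, stood at 1835, 2483, 2342 and 2384 CPM in CTRL and at 2238, 2351, 2665 and 2790 CPM in the mutants. CTRL replicate 1 was the lowest and Isl1_hypo replicates 3 and 4 the highest. The log2 fold change of Aldoa was 0.15 (interval −0.12 to 0.42, adjusted p = 0.647), and without CTRL replicate 1 it was 0.06.

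Pgk1 (chromosome X, 103382439 to 103399038, plus strand) encodes phosphoglycerate kinase 1, the first ATP-yielding enzyme of glycolysis. Its level was 46.4, 59.8, 55.6 and 55.8 CPM in CTRL and 61.5, 63.6, 77.3 and 72.2 CPM in Isl1_hypo. This was the only one of the 10 genes whose groups did not overlap, which held for 8.5% of all genes tested. The means were 54.4 ± 5.67 and 68.7 ± 7.4 CPM (SD, n = 4), and the log2 difference between the groups was 0.34 (SE 0.123, interval 0.07 to 0.60) and did not pass adjustment (edgeR unadjusted p = 0.0185, adjusted p = 0.312). Since Pgk1 is X-linked, the sex of the embryos was read from 4 Y-linked genes, whose summed level was 204 CPM in CTRL replicate 3, 222 to 277 CPM in Isl1_hypo replicates 1, 3 and 4, and at most 0.337 CPM in the other libraries. Among libraries without Y-linked counts Pgk1 was 63.6 CPM in the mutant and 46.4 to 59.8 CPM in the controls, and among those with them it was 61.5 to 77.3 CPM in the mutants and 55.6 CPM in the control.

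Eno1 (chromosome 4, 149610830 to 149622988, plus strand), enolase 1, which makes phosphoenolpyruvate, showed 142, 204, 182 and 179 CPM in CTRL and 185, 193, 295 and 249 CPM in Isl1_hypo. The higher mean of the mutants rested on replicates 3 and 4, while replicates 1 and 2 lay within the control range. Its log2 fold change was 0.39 (SE 0.163, interval 0.03 to 0.74; edgeR unadjusted p = 0.0361, adjusted p = 0.379). Without Isl1_hypo replicate 3 it was 0.24. A near-identical enolase copy, listed as Eno1b, had more counts than Eno1 in every library and followed it, with a log2 fold change of 0.39 (edgeR unadjusted p = 0.0328, adjusted p = 0.366), so that the 2 rows are not separate evidence.

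Ldha (chromosome 7, 54096845 to 54110997, plus strand) encodes the A subunit of lactate dehydrogenase, which turns pyruvate into lactate and renews NAD+ for glycolysis. CTRL replicates 1 to 4 held 1897, 2723, 2793 and 2686 CPM, and the Isl1_hypo replicates 2411, 2630, 2470 and 2900 CPM. CTRL replicate 1 was well below the other libraries, which overlapped throughout. The difference was 0.04 on the log2 scale (interval −0.25 to 0.33), and its sign turned when CTRL replicate 1 was left out (−0.08).

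The targets outside the glycolytic chain were compared next. Pdk1 (chromosome 2, 71711281 to 71741915, plus strand) encodes pyruvate dehydrogenase kinase 1, which inhibits pyruvate dehydrogenase and so the oxidation of pyruvate in the mitochondrion. It was found at 189, 196, 193 and 159 CPM in CTRL and at 156, 185, 167 and 184 CPM in Isl1_hypo. Every mutant library lay below the upper 3 controls, and CTRL replicate 4 lay among the mutants. The log2 fold change of Pdk1 was −0.09 (interval −0.32 to 0.14, adjusted p = 0.757).

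Vegfa (chromosome 17, 46153942 to 46169326, minus strand) encodes the angiogenic ligand VEGF-A, an established HIF target. It was the lowest of the 10, at 8.41, 6.64, 5.04 and 5.13 CPM in CTRL and 3.86, 5.51, 5.44 and 7.13 CPM in Isl1_hypo, on 71 to 270 counts a library. Its controls alone spread as widely as all mutants, and the interval of the log2 fold change, −0.77 to 0.38 around −0.20, was the widest of the 10. Bnip3 (chromosome 7, 146082519 to 146101202, minus strand), which marks mitochondria for removal, stood at 79.7, 72.5, 70.3 and 62.3 CPM in CTRL and at 54.1, 70.2, 102.9 and 75.1 CPM in Isl1_hypo. The mutants held both the lowest and the highest value. The log2 fold change of Bnip3 was 0.09 (interval −0.29 to 0.47) and became −0.10 without Isl1_hypo replicate 3.

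**Figure D2:**
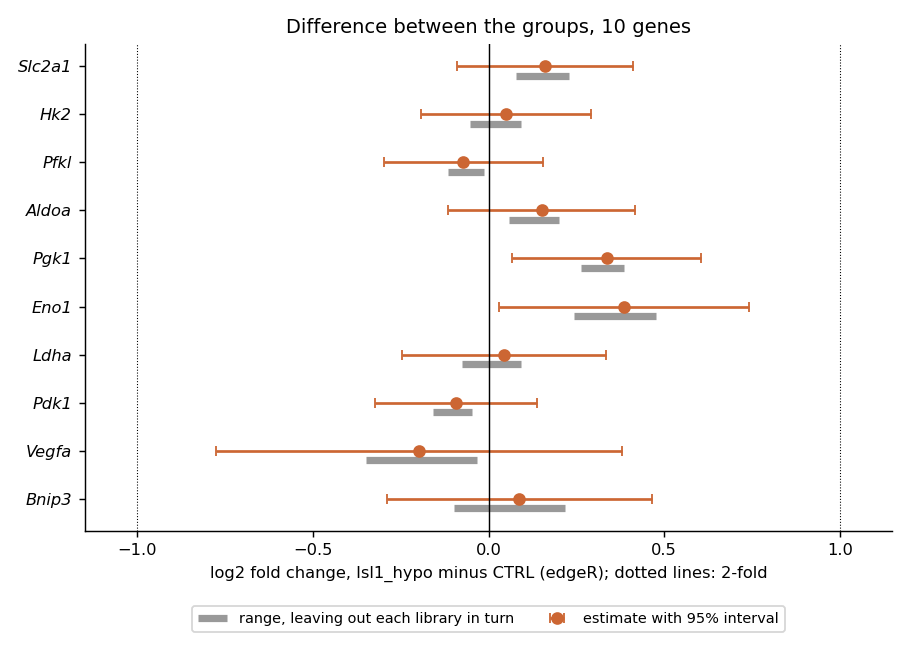
Log2 fold change of each gene (Isl1_hypo minus CTRL, horizontal axis; dotted lines mark a 2-fold change) with its 95% interval from edgeR, and in grey the range of the estimate when each of the 8 libraries is left out in turn. The intervals of Pgk1 (0.07 to 0.60) and Eno1 (0.03 to 0.74) lie above 0, and those of the other 8 genes include 0.

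The 10 genes differed widely in level. Per kilobase of transcript (the authors' RPKM), the order in CTRL was Ldha at 958 ± 149, Aldoa at 879 ± 104, Slc2a1 at 497 ± 65.0, Pfkl at 70.6 ± 4.74, Eno1 at 61.3 ± 8.48, Bnip3 at 25.0 ± 2.78, Pdk1 at 21.9 ± 2.02, Pgk1 at 18.4 ± 1.75, Hk2 at 15.5 ± 0.63 and Vegfa at 1.10 ± 0.292 RPKM (mean ± SD, n = 4). Neighbours whose SD ranges overlapped were Ldha and Aldoa, Pfkl and Eno1, Bnip3 and Pdk1, and Pdk1 and Pgk1. In Isl1_hypo the same measure gave 972 ± 86.1 for Ldha, 959 ± 91.6 for Aldoa, 547 ± 30.1 for Slc2a1 and 0.937 ± 0.228 for Vegfa.

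Low counts of Pgk1 beside its neighbours in the pathway led to a look at repeated sequence. For each gene the longest GENCODE mRNA of mm9 was divided into overlapping windows of 31 bases, and the share of windows found again outside the gene was counted. It was 94.0% for Pgk1, 77.2% for Eno1 and Bnip3, 52.8% for Ldha and 40.4% for Aldoa, and at most 1.92% for the other 5. Glyceraldehyde-3-phosphate dehydrogenase (Gapdh), with 85.8% repeated, was counted at 1.45 to 3.45 CPM, and the mutase Pgam1, with 94.1%, at 9.67 to 12.8 CPM, levels far under those of Aldoa or Ldha. Pgk1 and Eno1 were thus among the 3 genes of the 10 with the most repeated sequence, and their counts are uncertain for that reason. How reads with several matching places were treated is not given in the sources used here, so whether these counts are too low or too high cannot be told apart. The part of repeated sequence in their difference between the groups was not tested.

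**Figure D3:**
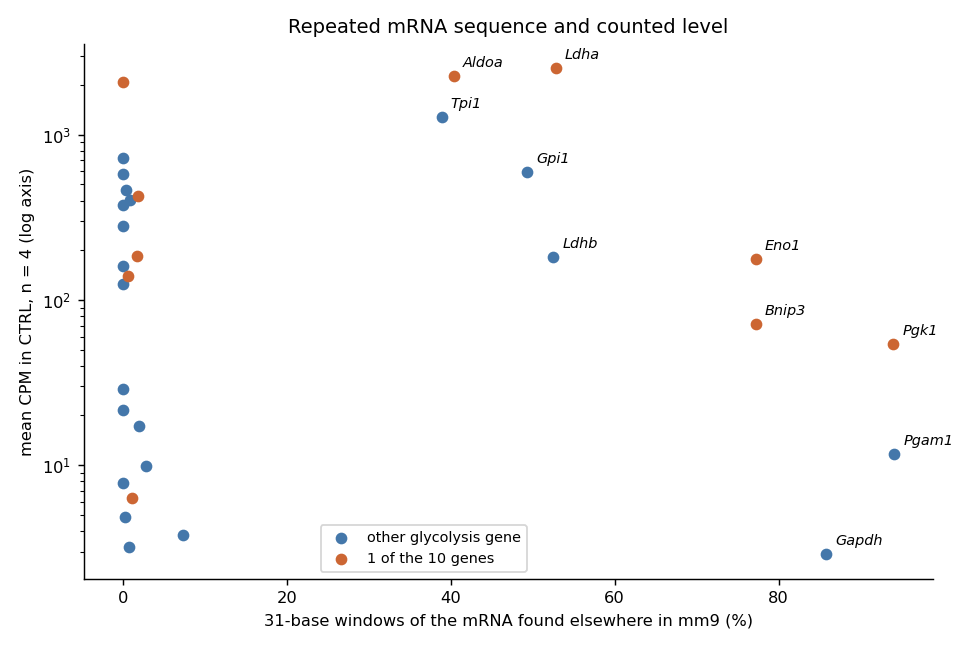
Share of 31-base mRNA windows that occur elsewhere in mm9 (horizontal axis, percent) against mean CPM in CTRL (vertical log axis, n = 4) for the 10 genes described here and the other glycolysis genes above 1 CPM in CTRL except Pkm (1165 CPM), which had no matched mRNA; genes above 20% are named. Pgk1, Gapdh and Pgam1, with 94.0%, 85.8% and 94.1% repeated, have 54.4, 2.88 and 11.7 CPM.

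Low and high libraries came from both groups. CTRL replicate 1 had the lowest level of 5 genes (Slc2a1, Aldoa, Pgk1, Eno1 and Ldha), and Isl1_hypo replicate 1 the lowest of the other 5 (Hk2, Pfkl, Pdk1, Vegfa and Bnip3). Isl1_hypo replicate 3 had the highest level of 4 genes, namely Hk2, Pgk1, Eno1 and Bnip3. That library stood apart, with at least 1 count for 14305 genes against 14935 to 15396 in the others, though it was the deepest of the mutants, and its scaling factor of 0.957 was the lowest. Without it the log2 fold change was −0.05 for Hk2, 0.27 for Pgk1, 0.24 for Eno1 and −0.10 for Bnip3. The mean of the 10 genes, each centred on its own mean log2 CPM, was −0.14, 0.06, 0.01 and −0.09 for the controls in replicate order, against −0.17, 0.00, 0.18 and 0.15 for the mutants, so both groups spanned low and high values. The share of counts in globin genes was 0.212%, 0.272%, 0.464% and 1.19% in CTRL and 1.86%, 1.18%, 2.44% and 1.53% in Isl1_hypo. In a fit that included globin level as covariate, Pgk1 had a log2 fold change of 0.23 and Eno1 of 0.21, and neither had an unadjusted p under 0.05 (edgeR, 0.293 and 0.464). The covariate, the mean log2 CPM of the globin genes, was 5.51 to 7.90 in CTRL and 7.84 to 8.70 in Isl1_hypo. It largely follows the group, so that fit cannot separate globin level from the group. Fewer cells of a type and less RNA per cell cannot be told apart in whole tissue.

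**Figure D4:**
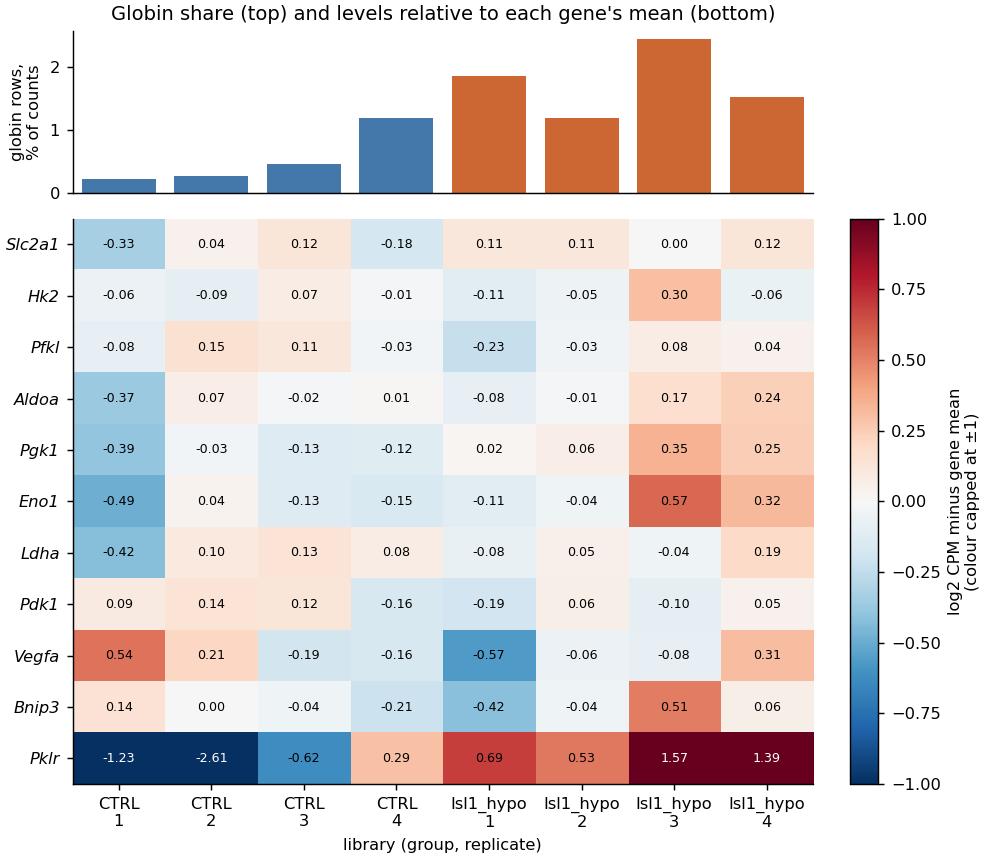
Top, share of counts in globin genes (percent, bars from 0) in each of the 8 libraries; bottom, log2 CPM of the 10 genes and of Pklr minus the mean of the gene over the 8 libraries (numbers and colour, capped at ±1). Pklr ranges from −2.61 to 1.57, and the 10 genes from −0.57 to 0.57.

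The genes whose profile lay nearest to that of the 10 were found by the root mean square distance of centred log2 CPM over the 8 libraries. They included Cpsf3 (distance 0.0394), Ube2k (0.0436), Mrpl11 (0.0452) and Psma4 (0.0454), beside a root mean square of 0.118 for the mean profile itself. The log2 fold changes of these 4 ranged from 0.08 (Cpsf3) to 0.15 (Ube2k), and their lowest adjusted p was 0.598.

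Because the 10 genes include 1 isoform of several pairs, the ratio of counts to the partner isoform was also compared, which does not depend on library scaling. Differences were tested by exact permutation (2-sided, 70 possible assignments), for which p cannot go below 0.0286, with adjustment over the 4 ratios. The ratio of Pdk1 to Pdk3, another pyruvate dehydrogenase kinase, was 0.732, 0.758, 0.727 and 0.657 in CTRL and 0.610, 0.589, 0.612 and 0.607 in Isl1_hypo. All mutant libraries lay below all controls and close together. Pdk3 is X-linked (chromosome X, 91009946 to 91077540, minus strand). Among libraries without Y-linked counts the ratio was 0.589 in the mutant and 0.657 to 0.758 in the controls, and among those with them it was 0.607 to 0.612 in the mutants and 0.727 in the control. The log2 ratio differed by −0.25 (exact p = 0.0286, the smallest possible, and adjusted p = 0.114). A ratio that alone has the smallest possible p cannot pass adjustment over the 4 ratios, however far apart the groups lie. The adjusted p therefore decides nothing for this ratio.

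The ratio of Ldha to Ldhb, the heart-type lactate dehydrogenase subunit, was 8.77, 15.5, 17.5 and 15.4 in CTRL and 12.6, 14.1, 9.23 and 13.3 in Isl1_hypo. CTRL replicate 1 and Isl1_hypo replicate 3 stood below the rest, so the low values came from both groups. The difference in log2 ratio was −0.18 (exact p = 0.457, adjusted p = 0.762). Leaving out CTRL replicate 1 made it −0.40 (exact test, adjusted p = 0.114), and leaving out Isl1_hypo replicate 3 made it −0.05. For Hk2 to Hk1, the ubiquitous hexokinase, the ratio ranged from 0.323 to 0.378 in CTRL and from 0.308 to 0.536 in Isl1_hypo, with a difference in log2 ratio of 0.10 (exact p = 0.829, adjusted p = 0.829). Slc2a1 to Slc2a3, the neuronal and placental glucose transporter GLUT3, ranged from 11.9 to 13.8 in CTRL and more widely in Isl1_hypo, from 8.45 to 20.1, with a difference of 0.17 (exact p = 0.571, adjusted p = 0.762). Isl1_hypo replicate 1 held the low value, and without it the difference was 0.43 (exact test, adjusted p = 0.114), while without Isl1_hypo replicate 4 it was 0.01.

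The rest of the pathway was read from lists of known genes. Of 24 other enzymes and transporters of glycolysis, 22 passed the filter on low counts and were tested, 9 were higher and 13 lower, and the median log2 fold change was −0.05 (0.03 without Isl1_hypo replicate 3). None passed an adjusted p of 0.05 with edgeR, and 2 of 22 (9.09%, beside 11.9% of all genes) had an unadjusted p under 0.05. The larger was Pklr, the pyruvate kinase gene of liver and red cells, at 2.21, 0.812, 3.402 and 6.46 CPM in CTRL and 8.53, 7.61, 15.7 and 13.9 CPM in Isl1_hypo. Its groups did not overlap, with a log2 fold change of 1.82 (edgeR unadjusted p = 0.00365, adjusted p = 0.199), and DESeq2 gave an adjusted p of 0.0117. In the fit that included globin level as covariate the log2 fold change of Pklr was 0.40, but that fit cannot separate globin level from the group. The part of red cells in the Pklr difference was not tested.

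Among the other glycolysis genes, Pfkfb4, a regulator of fructose 2,6-bisphosphate, was at 4.89 ± 1.17 CPM in CTRL and 2.74 ± 0.836 CPM in Isl1_hypo (log2 fold change −0.84, adjusted p = 0.326). The lactate transporter gene Slc16a1 (MCT1) was at 279 ± 23.4 and 324 ± 21.6 CPM (log2 fold change 0.21, adjusted p = 0.426). Pkm, which encodes the pyruvate kinase of muscle and embryonic tissue, was at 1165 ± 124 and 1229 ± 105 CPM (SD, n = 4), within the spread of the replicates.

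Of 34 other known HIF targets, 15 were higher and 19 lower in Isl1_hypo, with a median log2 fold change of −0.05 (0.01 without CTRL replicate 1). None passed adjustment with edgeR, 1 passed with DESeq2, and 4 had an unadjusted p under 0.05, or 11.8% beside 11.9% of all genes. Of these 4, 3 were lower. Loxl2, a collagen-crosslinking enzyme, stood at 243, 165, 215 and 192 CPM in CTRL and at 146, 115, 57.6 and 130 CPM in Isl1_hypo, and it was the gene that DESeq2 called (adjusted p = 0.0179; edgeR 0.201; log2 fold change −0.86). Plod1, a lysyl hydroxylase of collagen, ranged from 110.9 to 125 CPM in CTRL and from 66.0 to 97.9 CPM in Isl1_hypo (log2 fold change −0.41, adjusted p = 0.264).

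Higd1a, a mitochondrial protein gene induced by hypoxia, was the gene of the 4 that was higher, at 67.7 to 74.5 CPM in CTRL and 78.7 to 103.1 CPM in Isl1_hypo (log2 fold change 0.31, adjusted p = 0.309). The fourth was Edn1, the gene of the vasoactive peptide endothelin-1 (log2 fold change −0.47, adjusted p = 0.312). Car9, carbonic anhydrase 9, often taken as a hypoxia marker, was low, at 1.17 to 1.76 CPM in CTRL and 1.39 to 2.71 CPM in Isl1_hypo, and its log2 fold change of 0.37 was the highest of the 34 but with a wide interval (−0.53 to 1.26, adjusted p = 0.752). Since Loxl2 and Plod1 act on collagen, the cushion and outflow mesenchyme markers are given beside them. Of these 6 genes 5 were lower in Isl1_hypo, with a median log2 fold change of −0.43. At an unadjusted p under 0.05 there were 2 (33.3%, beside 11.9% of all genes), Twist1 and Sox9. The collagen genes of the list, Col1a1 (log2 fold change 0.11) and Col3a1 (−0.47), were not among these 2. The summed level of the 6 was 1547 to 2518 CPM in CTRL and 933 to 2590 CPM in Isl1_hypo. The part of mesenchyme in the Loxl2 and Plod1 differences was not tested.

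**Figure D5:**
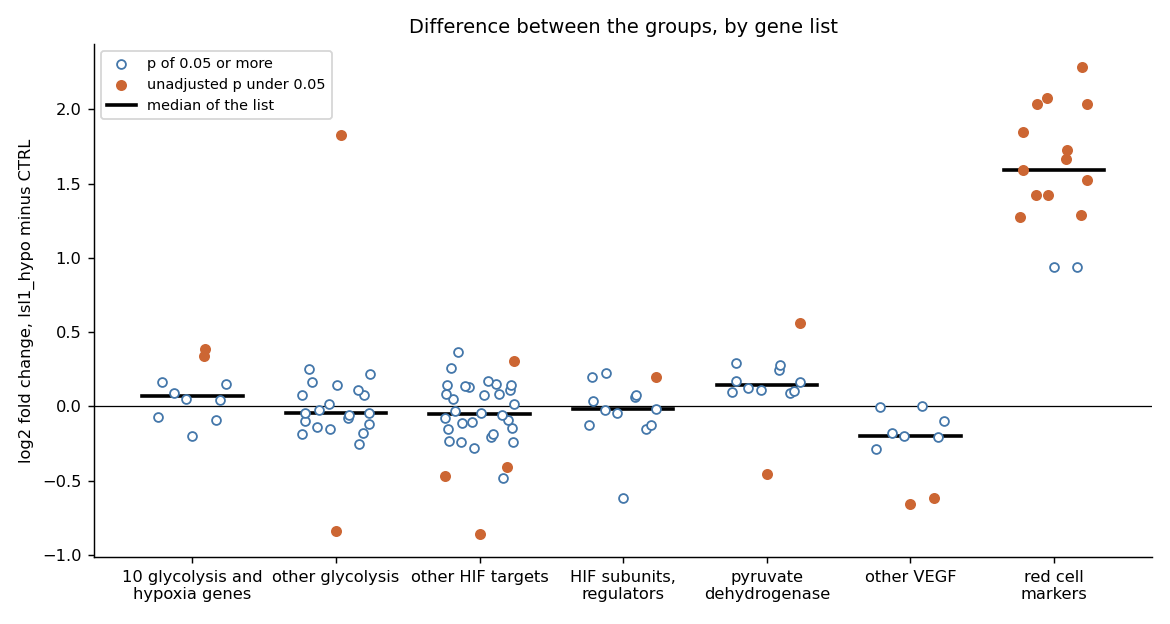
Log2 fold change (Isl1_hypo minus CTRL, vertical axis) of each tested gene of 7 lists; filled points have an unadjusted edgeR p under 0.05, and the bar is the median of the list. The medians of the glycolysis, HIF, pyruvate dehydrogenase and VEGF lists lie between −0.20 (VEGF) and 0.14 (pyruvate dehydrogenase), and that of the red cell markers at 1.59.

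HIF itself was measured through 13 genes for its subunits and regulators, of which 6 were higher and 7 lower (median log2 fold change −0.01, and 0.08 without Isl1_hypo replicate 3). None passed adjustment with edgeR or DESeq2, and 1 (7.69%, beside 11.9% of all genes) had an unadjusted p under 0.05. This was Hif1a, the oxygen-regulated subunit, at 508, 525, 564 and 512 CPM in CTRL and 591, 645, 607 and 581 CPM in Isl1_hypo. The groups did not overlap, but the difference was small (log2 fold change 0.20, interval 0.01 to 0.40, edgeR unadjusted p = 0.0449, adjusted p = 0.406). Arnt2, an alternative partner subunit, was at 7.97 to 9.47 CPM in CTRL and 2.69 to 7.23 CPM in Isl1_hypo (log2 fold change −0.61, adjusted p = 0.429). Cul2, the scaffold of the VHL ubiquitin ligase, was at 116 to 139 and 144 to 179 CPM (log2 fold change 0.23, adjusted p = 0.440).

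Mitochondrial uptake and oxidation of pyruvate were read from 12 genes of the pyruvate dehydrogenase complex, its kinases and phosphatases and the pyruvate carrier. In number, 11 of 12 were higher in Isl1_hypo, beside 7007 of all 13769 genes, with a median log2 fold change of 0.14. None passed adjustment with edgeR or DESeq2, and 2 (16.7%, beside 11.9% of all genes) had an unadjusted p under 0.05. The kinase gene Pdk4, the only one of the 12 that was lower, stood at 29.9, 23.9, 26.2 and 27.0 CPM in CTRL and 22.4, 23.6, 15.99 and 16.1 CPM in Isl1_hypo (log2 fold change −0.46, adjusted p = 0.309). The phosphatase gene Pdp2, whose product reactivates the complex, was at 28.2 ± 2.88 and 41.7 ± 15.1 CPM, the spread coming from 64.1 CPM in Isl1_hypo replicate 3 (log2 fold change 0.56, adjusted p = 0.322). Pdhb, a subunit of the E1 enzyme, differed by 0.24 on the log2 scale (adjusted p = 0.467). Pdk3, the partner in the ratio above, differed by 0.16 (adjusted p = 0.539).

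The other VEGF ligands and receptors comprised 9 genes, of which 8 were lower in Isl1_hypo (median log2 fold change −0.20), beside 6762 of all 13769 genes. None passed adjustment with edgeR, 1 passed with DESeq2 (2.17% of all genes did), and 2 had an unadjusted p under 0.05 (22.2%, beside 11.9% of all genes). The called gene was Vegfc, a ligand of lymphatic and venous endothelium, at 18.9, 22.0, 17.9 and 17.2 CPM in CTRL and 13.96, 13.5, 12.6 and 9.51 CPM in Isl1_hypo (log2 fold change −0.62; adjusted p = 0.195 with edgeR and 0.0396 with DESeq2). All mutant libraries lay below all controls. Nrp2, a co-receptor of VEGF-C and semaphorins, ranged from 39.3 to 46.6 CPM in CTRL and from 13.6 to 35.4 CPM in Isl1_hypo (log2 fold change −0.66, adjusted p = 0.310). Kdr, the main endothelial VEGF receptor, was at 88.7 ± 16.4 and 77.0 ± 4.67 CPM (log2 fold change −0.20, adjusted p = 0.567). Of 6 endothelial and endocardial markers, 4 were lower in Isl1_hypo (median log2 fold change of the 6, −0.36), and Nfatc1 (0.36) and Emcn (0.23) were higher. At an unadjusted p under 0.05 there were 2 (33.3%, beside 11.9% of all genes), both lower. Of these 2, Pecam1 ranged from 130.2 to 170.4 CPM in CTRL and from 80.1 to 119.5 CPM in Isl1_hypo, and Cdh5 from 77.7 to 105.8 and from 46.7 to 76.0 CPM. The groups of these 2 did not overlap, which held for 8.5% of all genes tested. None passed adjustment with edgeR (lowest adjusted p 0.170), and 1 passed with DESeq2 (adjusted p = 0.0223). The summed level of the 6 was 599.9 to 760.1 CPM in CTRL and 486 to 665 CPM in Isl1_hypo. Their part in the VEGF list was not tested.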

How the data were processed

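Polyadenylated RNA of single embryos was sequenced on BGISEQ-500. The authors aligned reads with STAR to mm9, per the labels and the study's methods, and used HOMER to count exon reads of RefSeq transcripts from both strands together, so overlapping and antisense genes cannot be separated; versions and the treatment of reads that match several places are not given in the sources used here. The deposited counts are whole numbers that were not normalized. RPKM columns, which the authors derived with edgeR, served here for levels only. Columns of the authors' own DESeq2 comparison (means, fold changes, test statistics and p-values) were not used.

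For each of 20701 symbols (31507 transcripts) the transcript with the highest mean count was kept. Genes were filtered with filterByExpr and scaled by TMM, and the groups were compared with glmQLFit and glmQLFTest of edgeR (4.0.16, R 4.3.3), with Benjamini-Hochberg adjustment over 13769 genes. CPM used the scaled library sizes, and log2 CPM a prior count of 2. The standard error is the fold change divided by the square root of F, and the biological coefficient of variation was 26.4%. Ratios were compared by an exact permutation test. DESeq2 (1.42.0), other scalings, filters and covariates, the replicate number as a block and leaving out each library were alternatives. Each group had 4 embryos, with 18422245 to 46678973 counts a library.

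The 10 genes and the lists were chosen with earlier results of these data known. Genes were named by rule: Isl1, the 10 genes, of each pathway list those with an adjusted p under 0.05 and otherwise up to 3 with the lowest unadjusted p, the ratio partners, and the 5 nearest profiles, of which 1 is not reported here. Edn1, Car9, Gapdh, Pgam1, Pkm and Eno1b and the repeated-sequence windows (67 of 68 genes matched, all but Pkm) were chosen after values were seen. The same holds for the marker genes named, which are Actc1, Nkx2-5, Myh7, Epb42, Pecam1, Cdh5, Nfatc1, Emcn, Hba-a1, Hba-a2, Hbb-b1, Hbb-bs, Hbb-b2, Hbb-bt, Krt8, Krt18, Cdh1, Epcam, Twist1, Sox9, Col1a1 and Col3a1.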

Additional observations from a re-analysis of the deposited data

Results flagged for a closer look

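Among the 10 genes, Isl1 and the 4 ratios, 30 groups of 4 libraries were examined for a library far from its group (Dixon's criterion, a gap above 0.829 of the range). Chance flags about 1 in 20 groups, or 1.5 of 30, and 3 were found. Slc2a1 in Isl1_hypo replicate 3 was at 2188 CPM, below the other mutants at 2363 to 2378 CPM. Hk2 in the same library was at 173 CPM, above the others at 131 to 136 CPM. Ldha in CTRL replicate 1 was at 1897 CPM, below the other controls at 2686 to 2793 CPM.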

How the results depend on the processing

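In each of the 17 alternatives 0 of the 10 genes passed an adjusted p of 0.05, with median log2 fold changes from 0.01 to 0.12 when a library was left out. The number of genes passing was 37 as reported, 320 with DESeq2, 0 with the globin level as a covariate, and 4 to 48 when a library was left out (8, 5 and 4 without CTRL replicates 1, 2 and 3, and 12 and 11 without Isl1_hypo replicates 2 and 4). DESeq2 called 1 gene each among other glycolysis genes (Pklr), other HIF targets (Loxl2) and other VEGF genes (Vegfc), where edgeR called 0. Signs turned with the globin covariate for Hk2 (−0.0929), Ldha (−0.071), Pdk1 (0.113) and Vegfa (0.188). Signs also turned without CTRL replicate 1 for Ldha (−0.0754), without Isl1_hypo replicate 4 for Ldha (−0.0128), and without Isl1_hypo replicate 3 for Hk2 (−0.0531), Bnip3 (−0.0971) and the log2 ratio of Hk2 to Hk1 (−0.0739). The cause of these changes was not tested. Over the 8 fits with a library left out, the log2 fold change ran from −0.0531 to 0.0914 for Hk2, −0.0754 to 0.0925 for Ldha and −0.0971 to 0.217 for Bnip3. It ran from 0.0791 to 0.23 for Slc2a1 and −0.35 to −0.033 for Vegfa (the value nearest 0 without CTRL replicate 1 for both), from −0.116 to −0.013 for Pfkl and −0.157 to −0.0472 for Pdk1 (the value nearest 0 without Isl1_hypo replicate 1 for both), and from 0.0588 to 0.202 for Aldoa, 0.263 to 0.384 for Pgk1 and 0.243 to 0.478 for Eno1. The log2 ratio of Hk2 to Hk1 ran from −0.0739 to 0.193, that of Ldha to Ldhb from −0.403 to −0.0522, that of Slc2a1 to Slc2a3 from 0.0133 to 0.429 and that of Pdk1 to Pdk3 from −0.291 to −0.221. List medians near 0 turned sign as well. With the globin covariate they were 0.0423 for other glycolysis genes, 0.0117 for other HIF targets and 0.0654 for HIF regulators. With a library left out they ran from −0.063 to 0.0294, −0.0863 to 0.0142 and −0.0435 to 0.0803 for these lists, from 0.111 to 0.17 for the pyruvate dehydrogenase genes and from −0.264 to −0.119 for other VEGF genes (−0.119 without CTRL replicate 4). The adjusted p of Isl1 was 0.50 with the globin covariate, at a log2 fold change of −2.32, in a fit where globin level largely follows the group.

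Replicate numbers did not pair the embryos: deviations of same-numbered libraries correlated between −0.021 and 0.022, and 1 of 4 numbers matched its own best. With the replicate block 0 genes passed (1582 at an unadjusted p under 0.05), Isl1 had a log2 fold change of −2.29 with an adjusted p of 0.072, and 0 of the 10 genes passed with a median of 0.06. The log2 ratio of Pdk1 to Pdk3 differed by −0.25 with the block (exact sign-flip test, adjusted p = 0.50). With 4 replicate numbers that test cannot reach a p under 0.05, so it decides nothing. Labels name single embryos but no litter or library batch, and Vegfa, on the fewest counts of the 10 genes (71 to 270), had the largest standard error.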
